A study of Mus musculus with 18 samples.

Results

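The difference between treated and untreated mice that was shared by 3 sorted fractions of liver immune cells was measured over all 18 libraries of the series, 9 treated and 9 untreated. Of 48440 gene identifiers counted, 13181 had enough counts to be tested. For 5278 of these the mean level differed in the same direction in CD3+CD8+, CD3+CD8- and CD3-CD8- cells, a rule of sign alone that uses no test. The other 7903 genes did not share 1 direction.

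Wild-type C57BL/6J mice, 7 weeks old when bought, had been given liver tumours by hydrodynamic injection of Ras and Myc oncogenes through the tail vein, which carries DNA into hepatocytes. Treatment was poly(I:C), a synthetic mimic of viral double-stranded RNA, at 4 mg/kg and anti-PD-L1 antibody at 200 µg, in 6 doses given every other day. Untreated mice carried the same tumours and are labelled as given no treatment. CD45+ cells, the leukocytes, were sorted from the livers of both, and each fraction has 3 treated and 3 untreated libraries. Anti-VEGF-A antibody appears in the dosing notes as well, although the treatment label of these libraries does not name it. The labels do not say whether untreated mice received a vehicle, nor the age at harvest.

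Libraries carry a letter code and a number, and libraries of one code were treated as one animal, which the labels do not state. Treated CD3+CD8- replicate 11 is titled P111, while its library name reads P11, and it was taken as number 11. Treated libraries come from numbers 2, 11 and 19, each present in all 3 fractions. Untreated libraries come from numbers 5 and 18, present in all 3, number 1, which lacks CD3+CD8- cells, and number 6, which has only CD3+CD8- cells. The letters are P for treated numbers 2 and 11 but PL for 19, and C for untreated numbers 1, 5 and 18 but CV for 6. What the letters mean is not given in the labels. The p-values rest on the spread among the 18 libraries, with an estimated correlation of 0.217 between libraries of one number, and not on that among 7 separate animals. With 1 value per animal no gene was called, and all 71 called genes among the 90 chosen by rule lost their call, Tox with adjusted p = 0.191 and Pdcd1 with adjusted p = 0.312 (limma). An exact permutation test of a single gene over animals cannot give a two-sided p below 0.0571.

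Total counts ran from 1829155 to 28233682 per library. Ribosomal RNA loci took 79.4% to 86.5% of the counts of 3 libraries (untreated CD3+CD8+ replicates 1 and 18 and treated CD3+CD8- replicate 2) and 0.348% to 2.26% of the other 15. Outside those loci, untreated CD3+CD8+ replicates 18 and 1 kept 493848 and 630915 counts, the fewest of all libraries. The 16 genes of the CD3 and T cell receptor complex were present in all 3 fractions, including the one sorted as CD3-CD8-, where they summed to 4284 to 6514 CPM (counts scaled to a common library size) in treated libraries, against 1229 to 2866 CPM in untreated libraries. The CD8 T cell markers there summed to 3297 to 4896 CPM in treated libraries, against 591 to 1696 CPM in untreated libraries. For comparison, the CD3 and T cell receptor genes summed to 5520 to 6421 CPM in treated CD3+CD8+ libraries. In treated CD3+CD8- libraries they summed to 3342 to 4864 CPM. The CD8 T cell markers summed to 4532 to 6254 and 699 to 1639 CPM in these 2 treated fractions. Treated CD3-CD8- libraries thus held T cell transcripts at levels like those of sorted T cells. T cell transcripts in the CD3-CD8- fraction thus moved with treatment, and their part in the results on T cell genes was not tested. The library labelled untreated CD3+CD8- replicate 6 also goes against its label, with CD8 T cell markers at 3358 CPM while replicates 5 and 18 had 501 to 618 CPM. Without number 6, 729 genes were called. In bulk RNA, fewer cells of a type and less RNA per cell cannot be told apart.

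PD-1, encoded by Pdcd1, is an inhibitory receptor of activated T cells, and its ligand PD-L1, encoded by Cd274, is found on tumour and myeloid cells. T cells that meet antigen persistently enter a state called exhaustion, in which PD-1, TIM-3, LAG-3 and TIGIT are held at the surface and the transcription factors TOX and BLIMP-1 (Prdm1) are expressed. Poly(I:C) is read by Toll-like receptor 3 in endosomes and by the helicases MDA5 and RIG-I in the cytosol, which lead to type I interferon and interferon-stimulated genes.

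With fraction as a covariate and the animal as a block, 683 of 13181 genes (5.18%) differed between treated and untreated libraries at an adjusted p below 0.05. Of these, 283 (2.15%) were higher and 400 (3.03%) lower in treated libraries. Among all genes tested, 2960 (22.5%) had a higher and 2318 (17.6%) a lower mean in all 3 treated fractions. Both conditions held for 566 genes, 268 higher and 298 lower, of which 44 and 36 were unnamed gene models, antigen receptor segments or pseudogenes. The remaining 117 called genes, 15 higher and 102 lower, did not share 1 direction. The log2 difference reached at least 1 in size in every fraction for 98 of the 566 genes, 53 higher and 45 lower. All 9 treated libraries lay on one side of the untreated libraries of their own fraction for 82 genes that were higher (0.622% of those tested) and for 17 that were lower (0.129%). Of these, 71 and 13 were called. The same animals recur across fractions, so a shared direction or lack of overlap in 3 fractions is not 3 separate agreements. With fraction-centred means per animal, treated and untreated animals did not overlap for 1371 of 13181 genes tested and for 391 of the 683 called.

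Which genes were called depended on single fractions and libraries. Without CD3-CD8- cells no gene was called by limma. In that fit 452 of 12120 genes tested had an unadjusted p below 0.05, a smaller share than chance alone gives on average. With all 3 fractions 3280 of 13181 genes did. Without CD3+CD8+ cells 223 were called, and without CD3+CD8- cells 1390. Leaving out treated CD3-CD8- replicates 19 or 2 left 21 and 72 calls, and leaving out untreated CD3-CD8- replicates 1, 5 or 18 left 152, 218 and 416. Without treated CD3+CD8+ replicate 2 there were 445 calls, and without untreated CD3+CD8+ replicate 5 there were 464, of which 350 shared 1 direction. There were 1766 calls without treated CD3+CD8+ replicate 19, 1382 without treated CD3+CD8- replicate 19 and 1322 without untreated CD3+CD8- replicate 18. A part of each library name was read as the sequencing lane, 2 or 3, which the labels do not state. All libraries of treated number 19 and the only one of untreated number 6 were in lane 3. All of treated number 11 were in lane 2, and the other numbers were in both. With this lane as a further covariate there were 1460 calls, 517 higher and 943 lower. Without the libraries rich in ribosomal RNA there were 608. Leaving out all libraries of a number gave 19 calls without number 2, 57 without number 1, 17 without number 5 and 313 without number 11, against 1333 without number 19 and 1216 without number 18. With library totals alone as the scale there were 18 calls, 15 higher and 3 lower, and the median log2 fold change of all genes moved to 0.26, against -0.02 with the scaling used here. In 42 of 43 alternative fits every called gene that could still be tested kept its sign, and after correction for GC content 678 of 681 did. These fits reuse the libraries in which the genes were called, so the kept signs are no separate support for direction. The fits without number 6, without its only library, and with only animals of more than 1 library gave the same calls and are counted apart.

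**Figure D1:**
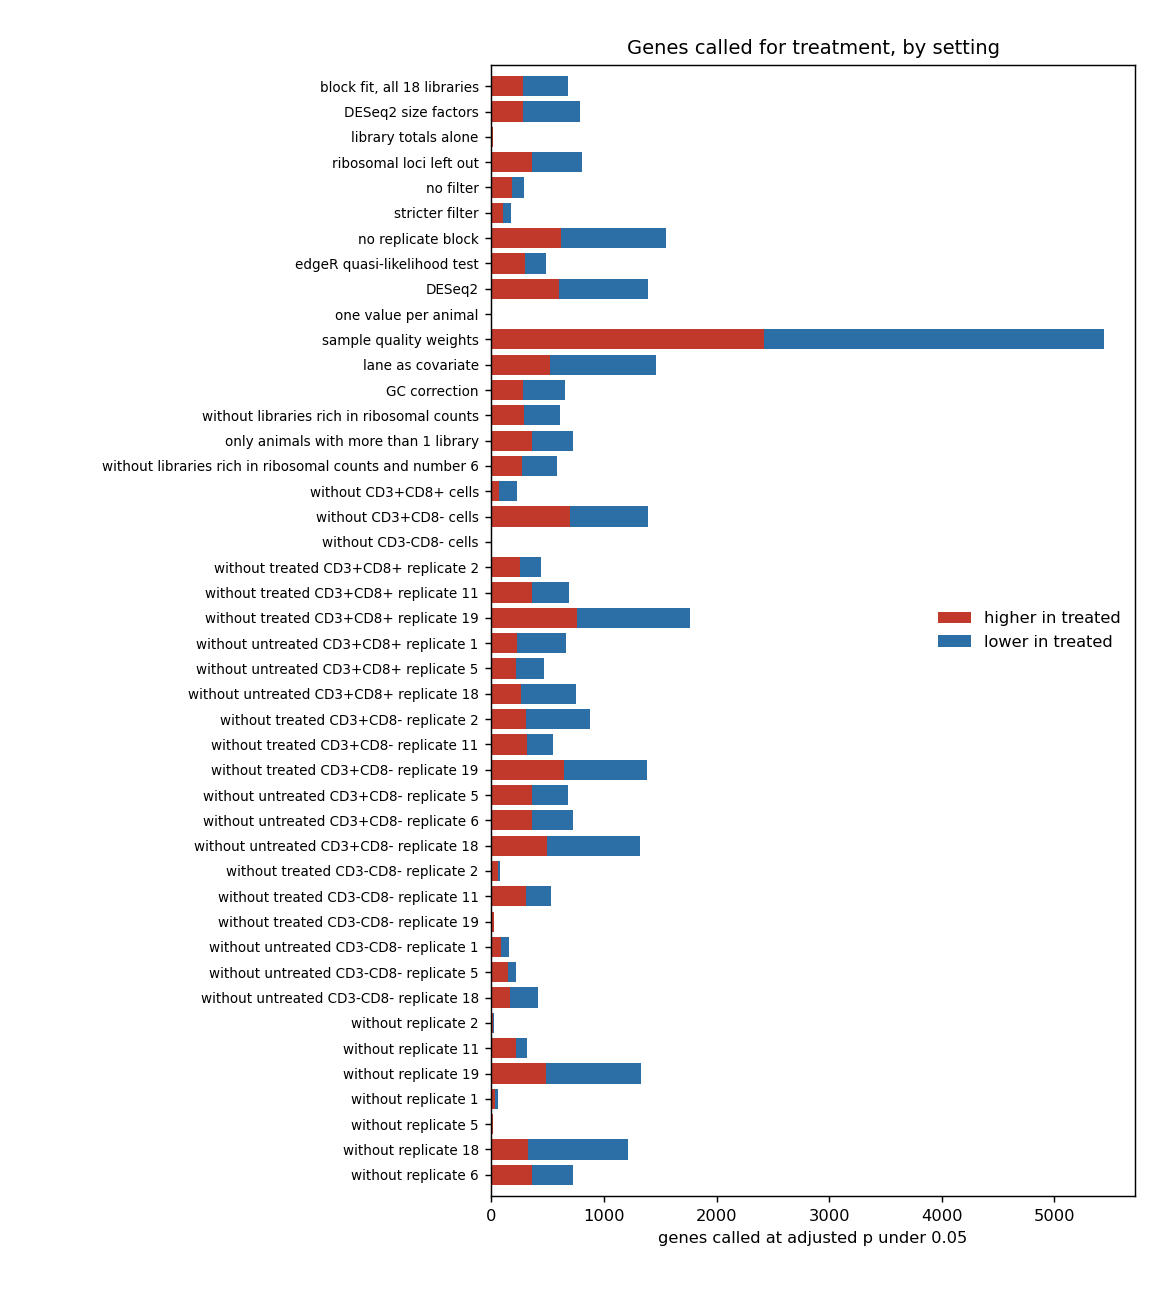
Number of genes called for treatment at an adjusted p below 0.05 (x axis), split into those higher and lower in treated libraries, for the fit with the animal as a block (top bar, 683 genes) and for each alternative named on the y axis. No gene was called without CD3-CD8- cells or with 1 value per animal, and the longest bar is that with sample quality weights (5444 genes).

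Of the 683 called genes, 7 were also called in each of the 25 fits that left out 1 library or 1 number, all higher in treated libraries in all 3 fractions: Prdm1, Tox, Ubash3b, Ica1, Faxc and the unnamed models 2310031A07Rik and Gm17764. Number 6 has 1 library, so leaving out that library and leaving out that number gave the same calls, and every tally over the 25 fits counts both. These 7 genes were picked after their values were seen. Prdm1 (ENSMUSG00000038151.12, chromosome 10, 44437177 to 44528501, as the deposited FPKM table places genes) encodes BLIMP-1, a repressor of transcription in effector and exhausted T cells and in plasma cells. In CD3+CD8+ cells it had 53.9, 51.4 and 52.2 CPM in treated libraries, against 16.3, 18 and 11.1 CPM in untreated libraries. In CD3+CD8- cells it had 37.4, 49.7 and 36.2 CPM in treated libraries, against 28.3, 17.8 and 17.3 CPM in untreated libraries. In CD3-CD8- cells it had 54.3, 41.2 and 39.8 CPM in treated libraries, against 14.8, 18.2 and 9.46 CPM in untreated libraries. Every treated library was above every untreated library, across fractions as well as within them, and the log2 fold change was 1.45 ± 0.20 (SE; adjusted p = 0.00221, limma).

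Prdm1 was among the 7 genes called in every one of these fits, and only its promoter is shown of those genes. The sequence is RefSeq's on build GRCm38.p6, from 250 bases before to 50 bases after a gene start in RefSeq, which lies inside the interval given above and is not its end, at chr10:44458699-44458998 on the minus strand, with the match to the AP-1 motif TGANTCA in capitals, 48 to 42 bases before the start.
Prdm1: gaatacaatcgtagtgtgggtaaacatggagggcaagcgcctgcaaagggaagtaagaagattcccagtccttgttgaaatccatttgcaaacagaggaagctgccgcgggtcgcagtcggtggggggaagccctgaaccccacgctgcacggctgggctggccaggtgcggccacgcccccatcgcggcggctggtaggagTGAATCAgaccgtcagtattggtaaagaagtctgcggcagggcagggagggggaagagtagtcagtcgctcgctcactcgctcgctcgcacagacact
The motif reads the same on both strands. The second motif searched, GAAA repeated after any 2 bases, the core of the interferon-stimulated response element, has no match in this window. A match describes these letters and is not a site shown to be bound. Each promoter shown in this text holds TGANTCA, so those shown are no sample of the called genes.

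Tox (ENSMUSG00000041272.11, chromosome 4, 6686353 to 6991557), a nuclear factor required for exhausted T cells to persist in mice, was the largest of the shared increases among genes whose libraries did not overlap in any fraction and that were named by the rule. In CD3+CD8+ cells Tox had 274, 242 and 278 CPM in treated libraries, against 52.8, 86.9 and 33.3 CPM in untreated libraries. In CD3+CD8- cells it had 114, 387 and 133 CPM in treated libraries, against 55.2, 85.2 and 22.2 CPM in untreated libraries. In CD3-CD8- cells it had 259, 192 and 217 CPM in treated libraries, against 24.8, 74.7 and 15.6 CPM in untreated libraries. The lowest treated library, 114 CPM, was above the highest untreated one, 86.9 CPM. The log2 fold change was 2.32 ± 0.37 (SE; adjusted p = 0.00581, limma), and it was 1.98 with adjusted p = 0.866 when the CD3-CD8- libraries were left out.

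Ubash3b, a phosphatase that dampens T cell receptor signalling, had 64.1 to 141 CPM in treated libraries (median 90.5), against 20.4 to 44.6 CPM (median 37.2) in untreated libraries, without overlap (log2 fold change 1.35 ± 0.20, SE; limma adjusted p = 0.00431). Ica1, islet cell autoantigen 1, had 6.52 to 15.1 CPM in treated libraries (median 12.3), against 0 to 7.67 CPM (median 1.28) in untreated libraries, with the smallest adjusted p of all genes (log2 fold change 2.96 ± 0.31, SE; limma adjusted p = 0.000155). Faxc had 4.54 to 28.5 CPM in treated libraries (median 17), against 0 to 7.54 CPM (median 2.19) in untreated libraries (log2 fold change 3.32 ± 0.45, SE; limma adjusted p = 0.00221). Ica1 and Faxc overlapped between groups within CD3+CD8- cells and in no other fraction.

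**Figure D2:**
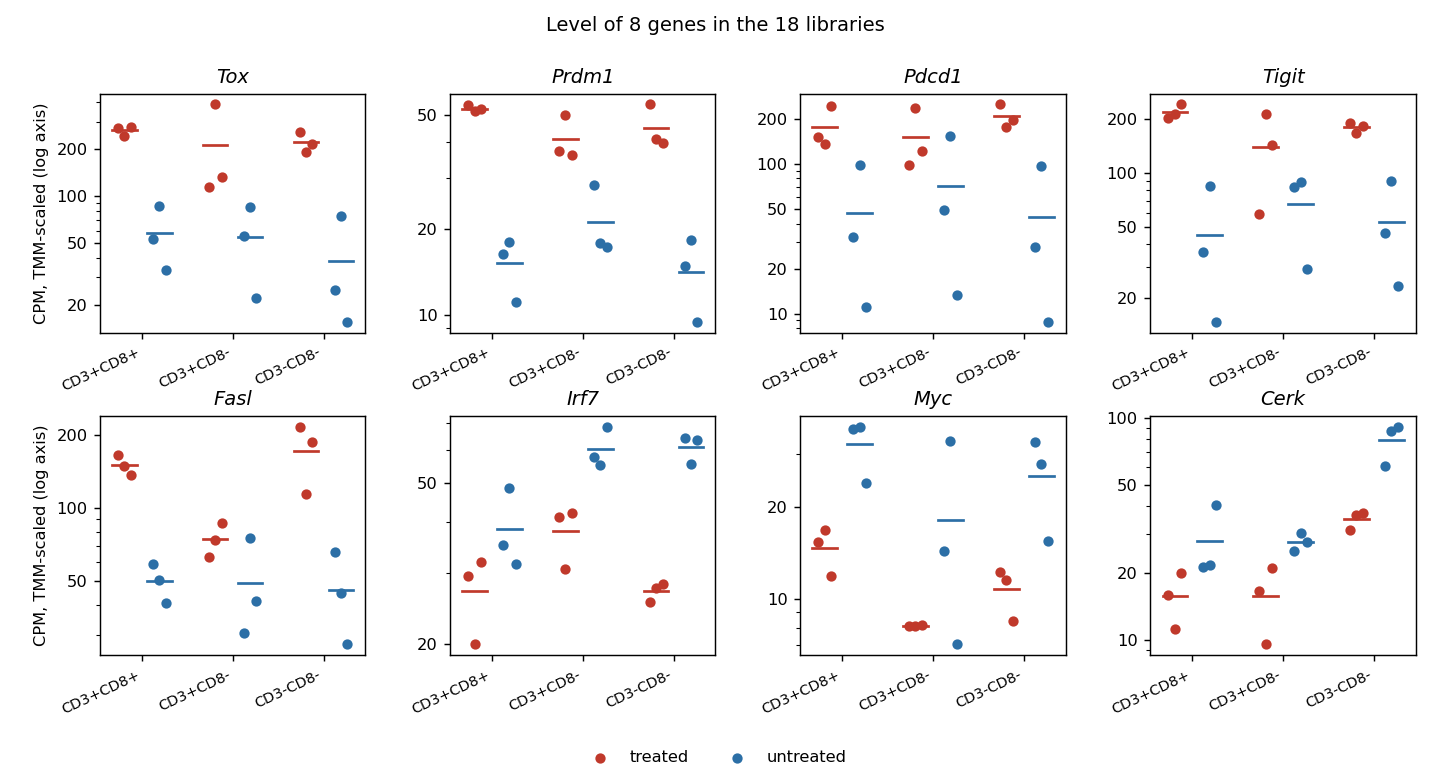
CPM of 8 genes (y axis, log scale) in the 18 libraries, grouped by sorted fraction (x axis), with treated libraries in red to the left of untreated libraries in blue and a bar at each mean of 3. Tox and Prdm1 are higher in every treated library of each fraction, Cerk is lower in every one, and Pdcd1, Tigit and Fasl overlap in CD3+CD8- cells.

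Genes of inhibitory receptors and T cell exhaustion had more members called higher than any other of the 52 lists. All 26 members were tested; 11 were called higher and 1 lower, 20 had a higher and 2 a lower mean in all 3 fractions, and the median log2 fold change was 0.99, beside -0.02, 2.15% called higher and 22.5% higher in all fractions for all genes tested. Of all genes tested, 3.03% were called lower and 17.6% were lower in all fractions, and these shares hold beside each list below. The 11 called higher were Prdm1, Tox, Havcr2, Tox2, Nr4a2, Tigit, Entpd1, Pdcd1, Eomes, Cd38 and Lag3. Nr4a1, an immediate-early nuclear receptor, fell. By fraction the list median of the log2 differences was 1.34 in CD3+CD8+, 0.58 in CD3+CD8- and 1.46 in CD3-CD8- cells. These genes are mostly expressed by T cells, and the CD3 and T cell receptor genes were also higher in treated CD3-CD8- libraries, as given above.

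Pdcd1, which encodes the receptor whose ligand was blocked, had 98.2 to 250 CPM in treated libraries (median 176), against 8.82 to 153 CPM (median 32.7) in untreated libraries. The treated libraries were above the untreated ones of their fraction in CD3+CD8+ and CD3-CD8- cells, and untreated CD3+CD8- replicate 6, the library with CD8 transcripts, held the highest untreated value. The log2 fold change was 2.09 ± 0.51 (SE; adjusted p = 0.0297, limma). Without number 6 it was 2.40 with adjusted p = 0.0111, without number 18 it was 1.34 with adjusted p = 0.0443, with the edgeR quasi-likelihood test the adjusted p was 0.0524, and it was 1.60 with adjusted p = 1 without CD3-CD8- cells. Relative to the mean of its fraction, Pdcd1 lay between 0.99 and 1.22 log2 units higher in the 3 treated animals, and at 0.91, -0.01, -1.33 and -2.81 in untreated numbers 6, 5, 1 and 18.

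Tigit, an inhibitory receptor for poliovirus receptor family ligands, had 59.3 to 241 CPM in treated libraries (median 191), against 14.8 to 90.2 CPM (median 46.4) in untreated libraries (log2 fold change 1.62 ± 0.36, SE; limma adjusted p = 0.023). Only treated CD3+CD8- replicate 2, at 59.3 CPM, fell within the untreated range. Lag3, a receptor that binds MHC class II, had 32 to 157 CPM in treated libraries (median 68.9), against 5.55 to 50.5 CPM (median 16.5) in untreated libraries (log2 fold change 1.58 ± 0.44, SE; limma adjusted p = 0.0428). Its call held in 10 of 25 fits that left out a library or number. Nr4a2, a nuclear receptor induced by T cell receptor signals, had 14.5 to 68.4 CPM in treated libraries (median 36.6), against 0.785 to 19.4 CPM (median 9.29) in untreated libraries (log2 fold change 2.06 ± 0.44, SE; limma adjusted p = 0.0198). Its paralog Nr4a1 moved the other way, with 2.66 to 38.5 CPM in treated libraries (median 13.4), against 3.70 to 83.5 CPM (median 22.5) in untreated libraries (log2 fold change -1.35 ± 0.36, SE; limma adjusted p = 0.0376).

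Havcr2 (ENSMUSG00000020399.14, chromosome 11, 46454935 to 46481255), which encodes TIM-3, had 24.7 to 133 CPM in treated libraries (median 80.2), against 19.3 to 47.7 CPM (median 24.1) in untreated libraries (log2 fold change 1.43 ± 0.29, SE; limma adjusted p = 0.0176). The difference was unequal among fractions: 2.06 in CD3+CD8+, 0.28 in CD3+CD8- and 1.92 in CD3-CD8- cells on the log2 scale, with an unadjusted p for the difference between fractions of 0.00198 that did not pass adjustment over all genes. In CD3+CD8- cells treated libraries had 24.7, 59.3 and 44.0 CPM, against 36.0, 47.7 and 20.9 CPM in untreated libraries, which overlap. Its promoter, at chr11:46454681-46454980 on the plus strand of GRCm38.p6, is shown beside that of Prdm1 because both genes rose and both hold TGANTCA, here 200 to 194 bases before the start and again in capitals. Since it was picked for holding the motif, the pair shows no link between motif and rise. Shares of the motif over sets of genes are given with Oas3 below.
Havcr2: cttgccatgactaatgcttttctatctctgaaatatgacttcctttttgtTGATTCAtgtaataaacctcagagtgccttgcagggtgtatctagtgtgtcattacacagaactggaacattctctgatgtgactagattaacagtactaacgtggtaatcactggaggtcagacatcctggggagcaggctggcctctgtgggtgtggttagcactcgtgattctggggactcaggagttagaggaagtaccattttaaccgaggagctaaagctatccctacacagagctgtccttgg

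CD3 and T cell receptor genes had higher means in treated libraries as well. Of 16 genes of the CD3 and T cell receptor complex, 2 were called higher and 11 had a higher and none a lower mean in all 3 fractions (median log2 fold change 0.58, or 0.31 without number 18). Cd3g, a chain of the CD3 complex, had 446 to 1755 CPM in treated libraries (median 1296), against 140 to 725 CPM (median 424) in untreated libraries (log2 fold change 1.42 ± 0.38, SE; limma adjusted p = 0.0368). Cd3e, another chain, had 173 to 386 CPM in treated libraries (median 255), against 51.8 to 264 CPM (median 125) in untreated libraries (log2 fold change 0.86 ± 0.23, SE; limma adjusted p = 0.0408), which was 0.53 with adjusted p = 0.0733 without number 18. Trac, the T cell receptor alpha constant chain, was not called (log2 fold change 0.76 ± 0.26, SE; limma adjusted p = 0.0864). Ptprc, which encodes the CD45 used in the sort, had 1644 to 3138 CPM in treated libraries (median 2363), against 1157 to 2578 CPM (median 1703) in untreated libraries (log2 fold change 0.34 ± 0.19, SE; limma adjusted p = 0.277).

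Of 13 follicular helper T cell genes 12 were tested and 3 were called, all higher (Pdcd1, Tox2 and Maf), and 8 were higher and none lower in all 3 fractions (median log2 fold change 0.87). Maf, a transcription factor of Il10 and Il21 producing T cells, had 30.1 to 226 CPM in treated libraries (median 52.9), against 5.31 to 89.1 CPM (median 29.6) in untreated libraries (log2 fold change 1.36 ± 0.38, SE; limma adjusted p = 0.0442). Its call held in 8 of 25 fits that left out a library or number. Tox2, a relative of Tox, had 4.62 to 19.1 CPM in treated libraries (median 8.70), against 0 to 5.83 CPM (median 2.51) in untreated libraries (log2 fold change 1.89 ± 0.40, SE; limma adjusted p = 0.0198). Naive and central memory T cell genes had lower means: of 23 tested, 17 were lower and none higher in all 3 fractions (17.6% of all genes were lower), with a median log2 fold change of -0.54. Id3, an inhibitor of E-protein transcription factors, and Myb, a regulator of stem-like cells, were the 2 called, both lower. Myb had 1.71 to 15.0 CPM in treated libraries (median 4.93), against 3.93 to 25.1 CPM (median 9.69) in untreated libraries (log2 fold change -0.93 ± 0.26, SE; limma adjusted p = 0.0428), a call that held in 7 of those 25 fits. Klf2, which keeps naive T cells circulating, was not called (log2 fold change -0.78 ± 0.26, SE; limma adjusted p = 0.085), nor was Tcf7, which encodes TCF-1 (log2 fold change -0.70 ± 0.24, SE; limma adjusted p = 0.0959). Tcf7, like Nr4a1, Ly6e and Eomes elsewhere, was named after its values were seen.

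**Figure D3:**
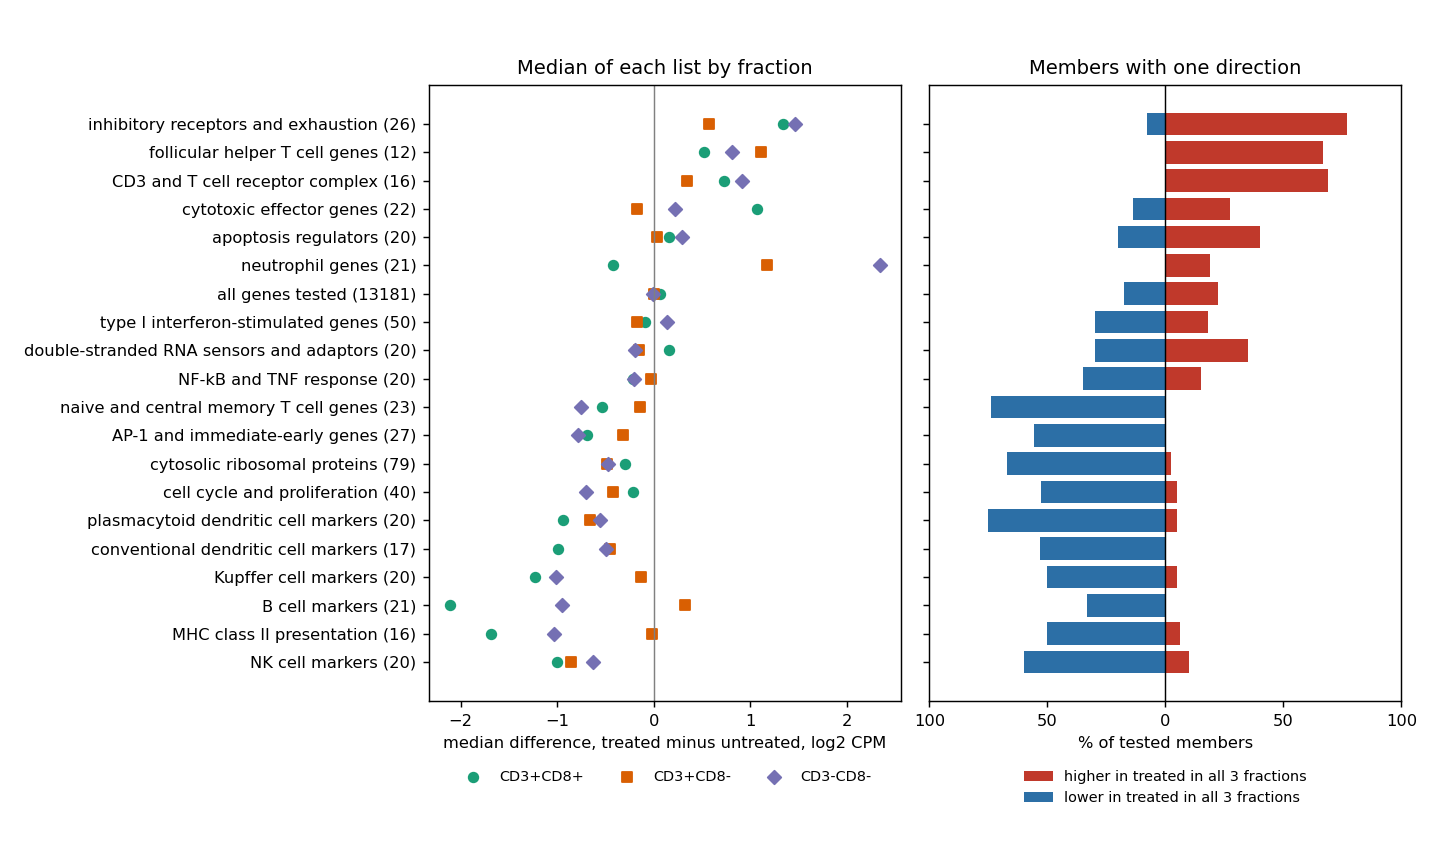
Left, the median treated minus untreated difference in log2 CPM (x axis) for 19 gene lists and all genes tested, in each sorted fraction; right, the share of tested members with a higher or a lower mean in all 3 treated fractions (x axis, percent). Numbers of tested members stand in parentheses. Inhibitory receptors and follicular helper genes lie right of all genes in each fraction, and plasmacytoid dendritic cell markers and naive T cell genes lie left in each.

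Beyond these lists, the genes whose treated and untreated libraries did not overlap in any fraction had varied roles. Syne1, which encodes the nuclear envelope protein nesprin-1, had 28.3 to 87.8 CPM in treated libraries (median 43.4), against 16.7 to 41.6 CPM (median 20.7) in untreated libraries (log2 fold change 0.96 ± 0.16, SE; limma adjusted p = 0.00645). Ly75, the endocytic receptor DEC-205, had 63.4 to 111 CPM in treated libraries (median 81.5), against 26.9 to 67.9 CPM (median 46.6) in untreated libraries (log2 fold change 0.87 ± 0.14, SE; limma adjusted p = 0.00645). Apaf1, the scaffold of the apoptosome, had 60.2 to 99.5 CPM in treated libraries (median 80.5), against 33.3 to 60.3 CPM (median 46.9) in untreated libraries (log2 fold change 0.83 ± 0.14, SE; limma adjusted p = 0.00903). Each of these 3 separated within every fraction while the ranges over all fractions touched or crossed.

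Stk39, a kinase of the SPAK family, had 48.5 to 107 CPM in treated libraries (median 75.7), against 13.3 to 45.0 CPM (median 29.8) in untreated libraries, with no overlap (log2 fold change 1.32 ± 0.23, SE; limma adjusted p = 0.00903). Also in this group were Slc22a15, a solute carrier (log2 fold change 1.34 ± 0.23, SE), Enpp1, an ectoenzyme that hydrolyses ATP and cGAMP (0.87 ± 0.16), and the unnamed model Gm14029 (1.31 ± 0.21), with limma adjusted p-values of 0.00903, 0.0101 and 0.00581. Cerk, ceramide kinase, was the one gene of the kind named by the rule that was lower: 9.56 to 37.2 CPM in treated libraries (median 20), against 21.4 to 90.8 CPM (median 30.3) in untreated libraries (log2 fold change -0.88 ± 0.20, SE; limma adjusted p = 0.0228).

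**Figure D4:**
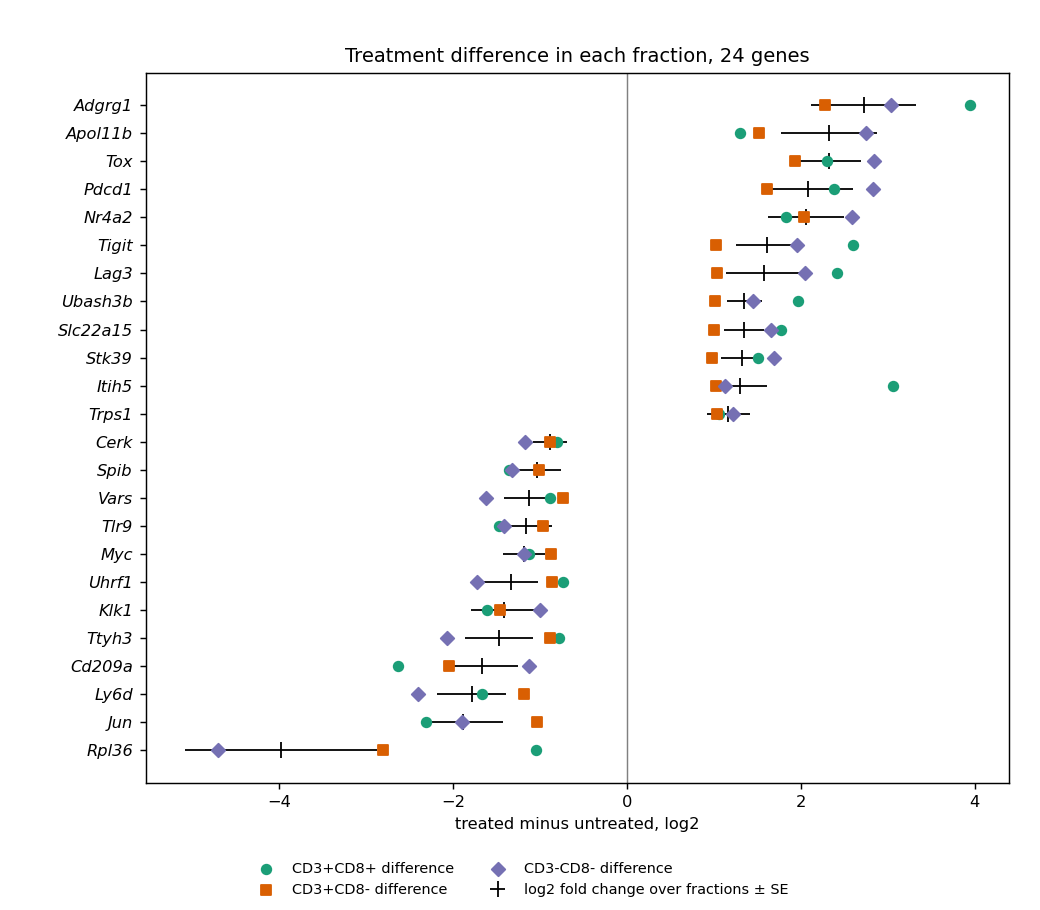
Treated minus untreated difference in mean log2 CPM (x axis) in each sorted fraction, as coloured markers, for the 24 called genes (y axis) with the largest smallest difference in either direction, and the log2 fold change over fractions with its SE as a black bar. All 3 markers of each gene lie on the same side of 0 by the rule that chose them; Adgrg1 and Itih5 spread widest upward and Rpl36 downward.

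The 12 called genes with the largest smallest difference upward were Adgrg1, Apol11b, Tox, Pdcd1, Nr4a2, Tigit, Lag3, Ubash3b, Slc22a15, Stk39, Itih5 and Trps1. Adgrg1, the adhesion receptor GPR56 of cytotoxic lymphocytes in humans, had 15.1 to 203 CPM in treated libraries (median 52.3), against 0.523 to 31.8 CPM (median 5.45) in untreated libraries (log2 fold change 2.72 ± 0.61, SE; limma adjusted p = 0.0228). Its animals overlapped: untreated number 6 lay at 0.87 and treated number 11 at 0.79 on the fraction-centred log2 scale. Trps1, a zinc finger repressor, had 30.7 to 117 CPM in treated libraries (median 42.3), against 15.2 to 49.9 CPM (median 18.2) in untreated libraries (log2 fold change 1.16 ± 0.25, SE; limma adjusted p = 0.0198). Itih5, a hyaluronan-binding inhibitor heavy chain, had 17.9 to 66.7 CPM in treated libraries (median 40.1), against 1.85 to 23.3 CPM (median 16.8) in untreated libraries (log2 fold change 1.30 ± 0.31, SE; limma adjusted p = 0.0295). Apol11b had 8.12 to 33.9 CPM in treated libraries (median 17.8), against 1.16 to 84.8 CPM (median 4.26) in untreated libraries, so that 1 untreated library, CD3+CD8- replicate 6, was above all treated ones (log2 fold change 2.32 ± 0.55, SE; limma adjusted p = 0.0282). For Apol11b the log2 fold change was 1.29 with adjusted p = 0.273 in the edgeR quasi-likelihood test and 1.16 with adjusted p = 0.188 in DESeq2.

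Fasl and Casp1 rose among the apoptosis regulators. Of 21 members 20 were tested, 3 were called higher and 1 lower (Bcl2l1), and 8 were higher and 4 lower in all fractions. Among all genes tested, 2.15% were called higher and 3.03% lower, and 22.5% were higher and 17.6% lower in all fractions. The list median was 0.13, or 0.28 without number 19. Fasl, the ligand by which cytotoxic cells trigger Fas, had 62.8 to 215 CPM in treated libraries (median 137), against 27.5 to 75.1 CPM (median 44.6) in untreated libraries (log2 fold change 1.39 ± 0.27, SE; limma adjusted p = 0.0136). Casp1, the inflammasome caspase, had 75.1 to 212 CPM in treated libraries (median 155), against 42.6 to 90 CPM (median 53.9) in untreated libraries (log2 fold change 1.18 ± 0.27, SE; limma adjusted p = 0.0245). Within fractions, treated and untreated libraries overlapped for both genes in CD3+CD8- cells and in no other fraction.

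Of 25 cytotoxic effector genes 22 were tested, and 3 were called higher (Fasl, Gzmk and Tnfsf10) and none lower, beside 2.15% of all genes called higher. In all 3 fractions 6 were higher and 3 lower, beside 22.5% and 17.6% of all genes. The median was 0.06, near that of all genes, with -0.02 to 0.27 over the fits that left out a library or number. Gzmk, granzyme K, had 56.6 to 665 CPM in treated libraries (median 497), against 19.3 to 229 CPM (median 54.0) in untreated libraries (log2 fold change 2.17 ± 0.57, SE; limma adjusted p = 0.0361). Tnfsf10, which encodes the death ligand TRAIL, had 72.8 to 244 CPM in treated libraries (median 144), against 40.9 to 114 CPM (median 71.0) in untreated libraries (log2 fold change 0.94 ± 0.25, SE; limma adjusted p = 0.0407). Gzmb, granzyme B, did not share a direction. It differed by 2.03 in CD3+CD8+ and 1.80 in CD3-CD8- cells but by -0.79 in CD3+CD8- cells on the log2 scale, and was not called over fractions (limma adjusted p = 0.381). In CD3+CD8- cells it had 110, 151 and 160 CPM in treated libraries, against 114, 570 and 212 CPM in untreated libraries, where the 570 CPM were in replicate 6. Without number 6 the log2 fold change of Gzmb over fractions was 1.26 with limma adjusted p = 0.0531.

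Of 24 cytokine genes 21 were tested, 2 were called higher (Il10 and Tnfsf10) and 3 lower (Lta, Il6 and Tgfb1). Il10, a suppressive cytokine, had 5.30 to 42.1 CPM in treated libraries (median 12.1), against 0 to 17.8 CPM (median 1.5) in untreated libraries (log2 fold change 2.67 ± 0.66, SE; limma adjusted p = 0.0308). In CD3+CD8+ cells it had 14, 12.1 and 10.6 CPM in treated libraries, against 0, 2.81 and 0 CPM in untreated libraries, the 2 untreated libraries at 0 being those rich in ribosomal RNA. Lta, lymphotoxin alpha, had 1.33 to 4.30 CPM in treated libraries (median 1.99), against 3.77 to 14.8 CPM (median 4.97) in untreated libraries (log2 fold change -1.19 ± 0.27, SE; limma adjusted p = 0.0254). Ifng, interferon gamma, was not called (log2 fold change 0.54 ± 0.36, SE; limma adjusted p = 0.349).

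Type I interferon-stimulated genes gave no call upward. Of 53 members 50 were tested, none was called higher and 5 were called lower (Irf7, Dhx58, Oasl1, Ly6e and Oas3), beside 3.03% of all genes called lower. In all 3 fractions 9 were higher and 15 lower, beside 22.5% and 17.6% of all genes. The median log2 fold change was -0.09, which became 0.20 with library totals alone, 0.07 with sample quality weights and 0.11 without number 19. Irf7 (ENSMUSG00000025498.15, chromosome 7, 141262706 to 141266481), the factor that amplifies type I interferon, had 20 to 42.2 CPM in treated libraries (median 29.5), against 31.5 to 68.5 CPM (median 55.7) in untreated libraries. It was lower in each treated library of the CD3+CD8- and CD3-CD8- fractions, and in CD3+CD8+ cells treated replicate 19 at 31.9 CPM met untreated replicate 18 at 31.5 CPM. The log2 fold change was -0.89 ± 0.16 (SE; adjusted p = 0.00903, limma), and it was -0.60 with adjusted p = 0.0225 after correction for GC content. Dhx58, which encodes LGP2, a regulator of RIG-I and MDA5, had 6.82 to 13.8 CPM in treated libraries (median 9.67), against 8.80 to 20.9 CPM (median 16) in untreated libraries (log2 fold change -0.74 ± 0.17, SE; limma adjusted p = 0.0262). Ly6e had 301 to 667 CPM in treated libraries (median 406), against 417 to 1116 CPM (median 619) in untreated libraries (log2 fold change -0.55 ± 0.15, SE; limma adjusted p = 0.0425).

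The receptors for poly(I:C) themselves were not called. Ifih1, which encodes MDA5, had 29.6 to 101 CPM in treated libraries (median 44.6), against 14.8 to 70.1 CPM (median 27.8) in untreated libraries (log2 fold change 0.77 ± 0.24, SE; limma adjusted p = 0.0667). Ddx58, which encodes RIG-I, had 77.5 to 147 CPM in treated libraries (median 98.5), against 70.9 to 118 CPM (median 84.1) in untreated libraries (log2 fold change 0.23 ± 0.14, SE; limma adjusted p = 0.314). Tlr3 did not share a direction (limma adjusted p = 0.643), and Isg15, a ubiquitin-like interferon-stimulated protein, did not either (log2 fold change -0.57 ± 0.30, SE; limma adjusted p = 0.249). Cd274, the gene of the antibody's target, had 24.4 to 59.3 CPM in treated libraries (median 44.7), against 31.7 to 80.1 CPM (median 41.5) in untreated libraries (log2 fold change -0.06 ± 0.17, SE; limma adjusted p = 0.858).

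Oas3 and Oasl1, of the oligoadenylate synthetase family, were both lower in all 3 treated fractions. Oas3 (ENSMUSG00000032661.9, chromosome 5, 120753098 to 120777661) had 9.92 to 39.3 CPM in treated libraries (median 19.6), against 20 to 61.0 CPM (median 26.5) in untreated libraries (log2 fold change -0.63 ± 0.18, SE; limma adjusted p = 0.048). The Oas3 call held in 6 of the 25 fits that left out a library or number; the log2 fold change was -0.39 with adjusted p = 0.133 without number 19 and -0.40 with adjusted p = 0.238 after correction for GC content. Oasl1 had 1.66 to 6.16 CPM in treated libraries (median 3.50), against 1.26 to 9.79 CPM (median 7.62) in untreated libraries (log2 fold change -1.15 ± 0.28, SE; limma adjusted p = 0.0295). The Oas3 promoter, at chr5:120777610-120777909 on the minus strand of GRCm38.p6, is shown because it holds both motifs searched: capitals mark the interferon-stimulated response element core, 75 to 66 bases before the start, between matches to TGANTCA at 109 to 103 and at 54 to 48 bases before it, none overlapping.
Oas3: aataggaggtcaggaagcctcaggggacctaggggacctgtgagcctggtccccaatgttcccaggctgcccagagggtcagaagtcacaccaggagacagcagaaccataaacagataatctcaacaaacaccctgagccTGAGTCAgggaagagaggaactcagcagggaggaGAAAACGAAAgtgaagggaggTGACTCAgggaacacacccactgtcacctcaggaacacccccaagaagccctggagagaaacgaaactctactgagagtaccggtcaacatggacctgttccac
Both motifs were searched on both strands. TGANTCA was in 7.81% of 32851 RefSeq mouse promoters of this length, and the interferon-stimulated core in 3.44%. By gene, TGANTCA was in 7.29% of 192 called genes higher in all fractions and in 5.58% of 215 called genes lower in all fractions, beside 6.30% of 9234 tested genes with a promoter in the table. For the interferon-stimulated core these shares were 4.69%, 3.26% and 4.12%.

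Immediate-early genes, which are switched on soon after a stimulus and include the AP-1 subunits, had lower means. Of 28 members 27 were tested, 8 were called lower (Myc, Junb, Egr3, Ier2, Jun, Jund, Nr4a1 and Zfp36) and none higher, 15 were lower and none higher in all 3 fractions, and the median log2 fold change was -0.74. Myc, the growth regulator and also one of the injected oncogenes, had 8.09 to 16.8 CPM in treated libraries (median 11.5), against 7.06 to 36.8 CPM (median 27.7) in untreated libraries. Treated libraries were lower throughout CD3+CD8+ and CD3-CD8- cells, and untreated CD3+CD8- replicate 18, at 7.06 CPM, was below the treated libraries of its fraction, which had 8.09, 8.13 and 8.16 CPM. The log2 fold change was -1.18 ± 0.24 (SE; adjusted p = 0.0173, limma), and whether its counts include the injected sequence is not given in the sources used here.

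Jun, an AP-1 subunit, had 3.49 to 60.9 CPM in treated libraries (median 7.89), against 12.4 to 52.5 CPM (median 35.2) in untreated libraries (log2 fold change -1.88 ± 0.46, SE; limma adjusted p = 0.0296). All 3 libraries of treated number 2, with 36.3, 60.9 and 15.5 CPM, lay within or above the untreated range, while the other 6 treated libraries lay between 3.49 and 10.4 CPM. Junb, its relative, had 0.499 to 10.4 CPM in treated libraries (median 2.11), against 1.85 to 36.1 CPM (median 12) in untreated libraries (log2 fold change -2.79 ± 0.64, SE; limma adjusted p = 0.0262). Egr3 was near 0 in most libraries and positive in CD3+CD8- cells, with 0 to 0.991 CPM in treated libraries, against 0 to 2.25 CPM in untreated libraries.

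Of 20 NF-kB and TNF response genes tested, 3 were called lower (Nfkb2, Relb and Bcl3) and none higher, beside 3.03% of all genes called lower. In all fractions 3 were higher and 7 lower, beside 22.5% and 17.6% of all genes. The median was -0.17, with -0.30 to -0.04 over the fits that left out a library or number. Nfkb2, a subunit of the noncanonical pathway, had 6.39 to 19.3 CPM in treated libraries (median 16.6), against 11.3 to 75.3 CPM (median 25.5) in untreated libraries (log2 fold change -1.28 ± 0.29, SE; limma adjusted p = 0.0254). Relb, its partner, had 4.66 to 11.3 CPM in treated libraries (median 9.63), against 5.03 to 29.4 CPM (median 15.0) in untreated libraries (log2 fold change -0.94 ± 0.23, SE; limma adjusted p = 0.0302). Bcl3 did not share a direction, and its fold change of -0.90 became 0.02 after correction for GC content.

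Of 40 cell cycle genes tested, 4 were called lower (E2f1, Tk1, Uhrf1 and Gins2) and none higher, beside 3.03% of all genes called lower. In all 3 fractions 21 were lower and 2 higher, beside 17.6% and 22.5% of all genes (median -0.59, or -0.38 without number 2). Uhrf1, which copies DNA methylation, had 2.47 to 12.1 CPM in treated libraries (median 4.36), against 5.55 to 27.1 CPM (median 12.7) in untreated libraries (log2 fold change -1.33 ± 0.31, SE; limma adjusted p = 0.0267). E2f1, a factor of S phase entry, had 0.770 to 3.39 CPM in treated libraries (median 2.03), against 1.26 to 7.96 CPM (median 5.73) in untreated libraries (log2 fold change -1.80 ± 0.36, SE; limma adjusted p = 0.0161). Tk1, thymidine kinase, had a log2 fold change of -1.56 ± 0.33 (SE; adjusted p = 0.02, limma). Mki67, the Ki-67 antigen of cycling cells, was not called and did not share a direction (log2 fold change 0.20 ± 0.27, SE; limma adjusted p = 0.661).

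Cytosolic ribosomal protein genes had lower means: of 79 tested, 53 were lower and 2 higher in all 3 fractions, with a median log2 fold change of -0.46, or -0.16 without number 6 and -0.73 without number 18, yet only Rpl36 was called. Rpl36 had 1.20 to 16.1 CPM in treated libraries (median 2.70), against 1.85 to 391 CPM (median 13.5) in untreated libraries (log2 fold change -3.98 ± 1.10, SE; limma adjusted p = 0.0444), which was -2.30 with adjusted p = 1 without CD3-CD8- cells. Ribosomal protein genes have many near-identical processed copies, so their counts are uncertain, and the 391 CPM of Rpl36 were in untreated CD3+CD8- replicate 6. The other genes with the largest smallest difference downward were Vars, a valyl tRNA synthetase (log2 fold change -1.12 ± 0.29, SE; limma adjusted p = 0.0358), Ttyh3, a chloride channel (-1.47 ± 0.39; 0.037), Tlr9, Spib, Klk1, Cd209a and Ly6d, described next, and Cerk, Myc, Uhrf1 and Jun, described above. Called genes that were lower in all fractions had a median transcript GC content of 56.0%, against 46.5% for those that were higher and 48.9% for all genes tested. GC content thus moved with direction. After correction for it 284 genes were called higher and 368 lower, and 417 of the 683 were among them.

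Among markers of other lineages, calls were mostly downward. Beside each of these lists stand 3.03% of all genes called lower, 17.6% lower in all fractions and 22.5% higher in all fractions. Of 20 plasmacytoid dendritic cell markers tested, 4 were called lower (Cox6a2, Tlr9, Klk1 and Spib), 15 were lower and 1 higher in all fractions, and the median was -0.67. The summed level of these markers was 872 to 1271 CPM in treated and 1512 to 1878 CPM in untreated CD3+CD8+ libraries. It was 703 to 1003 CPM in treated and 1063 to 1996 CPM in untreated CD3+CD8- libraries. In CD3-CD8- libraries it was 373 to 747 CPM in treated and 671 to 730 CPM in untreated ones, which overlap. By median the sums were lowest there, at 507 CPM in treated and 692 CPM in untreated libraries. Sorted T cell libraries held more, so the list cannot be taken to follow plasmacytoid dendritic cells alone. Tlr9, a DNA sensor of these and of B cells, had 2.59 to 10.7 CPM in treated libraries (median 8.80), against 4.89 to 30.3 CPM (median 21.5) in untreated libraries (log2 fold change -1.16 ± 0.30, SE; limma adjusted p = 0.034). Klk1, a kallikrein of plasmacytoid dendritic cells, had 2.19 to 25.8 CPM in treated libraries (median 13.3), against 9.71 to 95.8 CPM (median 42.9) in untreated libraries (log2 fold change -1.41 ± 0.38, SE; limma adjusted p = 0.0392). Spib, a transcription factor shared by these cells and B cells, had 8.47 to 66.6 CPM in treated libraries (median 22.4), against 11.7 to 151 CPM (median 42.4) in untreated libraries (log2 fold change -1.04 ± 0.28, SE; limma adjusted p = 0.0408).

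Of 18 conventional dendritic cell markers 17 were tested, 4 were called lower (Fscn1, Cd209a, Batf3 and Ccl22), and 9 were lower and none higher in all fractions (median -0.48, or -0.30 without treated CD3-CD8- replicate 2). Their summed level was 290 to 403 CPM in treated and 454 to 748 CPM in untreated CD3+CD8+ libraries. In CD3-CD8- libraries it was 556 to 952 CPM in treated and 998 to 1062 CPM in untreated ones. In CD3+CD8- libraries it was 485 to 592 CPM in treated and 395 to 720 CPM in untreated ones, which overlap. Cd209a, a lectin of monocyte-derived dendritic cells, had 1.93 to 13.7 CPM in treated libraries (median 3.35), against 5.25 to 35.1 CPM (median 18.5) in untreated libraries (log2 fold change -1.66 ± 0.41, SE; limma adjusted p = 0.0317). Of 21 B cell markers 3 were called lower (Vpreb3, Ly6d and Spib), and 7 were lower and none higher in all fractions (median -0.70). Ly6d had 2.87 to 46.6 CPM in treated libraries (median 17.4), against 13.8 to 269 CPM (median 40.7) in untreated libraries (log2 fold change -1.78 ± 0.39, SE; limma adjusted p = 0.0217). In CD3-CD8- cells the summed B cell markers were 3966 to 5937 CPM in treated libraries, against 6532 to 10495 CPM in untreated libraries; in CD3+CD8- cells they were 1178 to 2106 and 765 to 1601 CPM and overlapped.

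Of 20 markers of Kupffer cells, those of the resident liver macrophages, 4 were called lower (Marco, Timd4, Id3 and Cd163), and 10 were lower and 1 higher in all fractions (median -0.68). The list median was 0.19 without CD3-CD8- cells, -0.38 without number 2 and -1.17 without number 5. The summed level of these markers overlapped between treated and untreated libraries in every fraction. It was 444 to 712 CPM in treated and 263 to 846 CPM in untreated CD3+CD8- libraries. In CD3-CD8- libraries it was 232 to 972 CPM in treated and 555 to 1757 CPM in untreated ones. Timd4, a receptor for dying cells, had 0 to 0.663 CPM in treated libraries (median 0.198), against 0 to 15.7 CPM (median 3.66) in untreated libraries, and Marco, a scavenger receptor, had 0 to 2.58 CPM (median 0.173) in treated libraries, against 0 to 9.80 CPM (median 1.31) in untreated libraries. These levels are near 0 in most libraries, so fold changes of such genes depend on the weighting of low counts and are not printed. In smaller lists, 4 of 15 basophil and mast cell genes (Cma1, Il6, Gata2 and Il3ra), 2 of 5 tested of 10 platelet transcripts (Pf4 and Itga2b) and 3 of 15 tested of 21 chemokine ligands (Pf4, Ccl22 and Ccl2) were called lower, beside 3.03% of all genes. Il6 and Ccl2 did not share 1 direction over the fractions.

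Neutrophil genes had a list median of 1.40 over 21 tested of 24 members, but 4 were higher in all 3 fractions and 3 were called (Ly6g, Ltf and Ngp). Ltf, lactoferrin, and Ngp, a granule protein, did not share a direction, with log2 differences of -0.20 and -0.25 in CD3+CD8+ cells. Neutrophil transcripts were present in the sorted T cell fractions too, with sums that overlapped between groups. The summed neutrophil genes were 13123 to 35525 CPM in treated and 3918 to 16555 CPM in untreated CD3+CD8- libraries, 630 to 21503 CPM in treated and 212 to 1007 CPM in untreated CD3-CD8- libraries, and 115 to 744 CPM in treated and 52.7 to 927 CPM in untreated CD3+CD8+ libraries. Natural killer cell markers had a median of -0.75, or -0.40 without number 19, and 12 of 20 were lower in all fractions, although the 1 called member, Eomes, was higher. Their summed level did not follow that median: it was 3140 to 5340 CPM in treated and 1787 to 2427 CPM in untreated CD3+CD8+ libraries, 1320 to 1959 CPM in treated and 1878 to 2717 CPM in untreated CD3+CD8- libraries, and 4734 to 6464 CPM in treated and 3128 to 4419 CPM in untreated CD3-CD8- libraries. The sums were thus higher in treated libraries without overlap in the CD3+CD8+ and CD3-CD8- fractions. Eomes, a T-box factor also of effector and exhausted CD8 T cells, had 28.5 to 136 CPM in treated libraries (median 95.9), against 11.8 to 69.5 CPM (median 30.1) in untreated libraries (log2 fold change 1.21 ± 0.30, SE; limma adjusted p = 0.0331).

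Differences between fractions in the treatment effect were tested for all 13181 genes, and none (0%) passed at an adjusted p below 0.05 with limma, where the smallest adjusted p was 0.0975 and 835 genes had an unadjusted p below 0.05. The edgeR quasi-likelihood test called none and DESeq2 called 55. The 5 genes of smallest p at a mean log2 CPM of at least 3 were Xlr4c, Mx1, Tm6sf1, Gzmb and Klra13-ps. Mx1, an antiviral GTPase, had 44.5, 36.3 and 28.1 CPM in treated CD3-CD8- libraries, against 19.8, 17.6 and 18.8 CPM in untreated ones, and 25, 29.7 and 19.8 CPM in treated CD3+CD8- libraries, against 46.8, 31.5 and 39.8 CPM in untreated ones. Its treated libraries were thus above the untreated ones in 1 fraction and below them in another. Xlr4c differed by 2.06 in CD3-CD8- cells, against -0.31 in CD3+CD8+ and -0.40 in CD3+CD8- cells on the log2 scale. Xist, the transcript of the inactive X chromosome, was at 250 to 1420 CPM in each library of treated number 2 and of untreated numbers 1 and 6, and at most 5.55 CPM in every other library, so its mean over groups has no shared direction. Xist thus split the numbers within both groups, as a mix of sexes would. No fit held sex as a term, and its part in the differences was not tested. Klra13-ps, a pseudogene of the Ly49 receptor family whose reads may be shared with its relatives, was lower in all 3 fractions but not called (log2 fold change -1.44 ± 0.44, SE; limma adjusted p = 0.0625).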

How the data were processed

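RNA was sequenced from 18 libraries of sorted mouse liver leukocytes, 9 treated and 9 untreated, and a library was placed in its group by its label. The deposited count table holds whole-number read counts per gene, which the authors made with Trim Galore 0.6.7 and HTSeq 0.13.5, per the submitters' processing notes. The deposited FPKM table, for which the same notes name Cufflinks 2.2.1, served here for gene symbols and coordinates alone. The notes also name DESeq2 3.20, for a step whose results were not used here. For aligner, build and use of strand in counting, the value is not given in the sources used here, so genes that overlap or have near-identical copies are uncertain. Of its library columns, 22 match none of these samples and were not used.

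Symbols came from the FPKM table for 48242 of 48440 identifiers, from the reference list for 194, and were absent for 4. Starts in the FPKM table were raised by 1 base, after which 90.4% of identifiers found in GENCODE vM21 had the same start.

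Genes were kept by filterByExpr over the 6 groups of fraction and treatment (13181 kept), scaled by TMM, and fitted with voomLmFit of edgeR 4.0.16 and limma 3.58.1 in R 4.3.3, with fraction and treatment as terms and the animal number as a block. This fit was used as the main one because it allows the block, whose within-animal correlation was estimated at 0.217. A gene was called at a Benjamini-Hochberg adjusted p below 0.05. Fractions were compared by the sign of treated minus untreated mean log2 CPM (prior count 2), and the difference between fractions by an F-test in a fit of 6 groups. The edgeR quasi-likelihood test and DESeq2 1.42.0 were alternatives, with other scalings, filters, covariates, and libraries or fractions left out. The main fit of the treatment effect was tested on simulated counts with known fold changes, and the other tests and rules were not. That simulation gave all genes the same spread and held no library at odds with the rest. It therefore does not bear on how the calls depend on single libraries.

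The text names a fixed set (Pdcd1, Cd274, Tlr3, Ifih1, Ddx58, Isg15, Irf7, Gzmb, Ifng, Ptprc, Mki67 and Xist), the 12 called genes in each direction with the largest smallest difference, up to 3 members of lists with at least 3 calls or a largely shared direction, the 5 genes of smallest p for a difference between fractions, and up to 10 genes without overlap in any fraction, the last 3 of these rules by p and those on single genes at a mean log2 CPM of at least 3. Ica1, Faxc, 2310031A07Rik, Gm17764, Nr4a1, Ly6e, Eomes and Tcf7 lie outside it and were chosen after their values were seen. The members, lists and tests were chosen with earlier results of these data known. Total counts of 1829155 to 28233682, and as few as 493848 outside ribosomal RNA loci, limit the precision of low genes. A result for 1 gene named by the rule is not reported here.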

Additional observations from a re-analysis of the deposited data

Results flagged for a closer look

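Within the 9 treated or the 9 untreated libraries, after centring each fraction, the library farthest from the rest was examined for each of the 90 genes named by rule, 180 groups in all. Chance sets apart about 1 in 20 such groups. In 16 of them the gap to the nearest library exceeded the critical share of the range. Untreated CD3+CD8+ replicate 18, rich in ribosomal RNA, was lowest for Tox2 (0.50 of the range), Itih5 (0.670) and Itga2b (0.507) and highest for Lta (0.623). Untreated CD3+CD8+ replicate 1, likewise rich, was lowest for Slc22a15 (0.514) and Oasl1 (0.525) and highest for Ly6g (0.569). Treated CD3+CD8- replicate 2, also rich, was lowest for Tigit (0.648) and Ccl22 (0.497). Treated CD3-CD8- replicate 11 was highest for Ly6g (0.544) and Ltf (0.539). Single gaps concerned Relb in treated CD3+CD8+ replicate 19, the highest (0.592), Il10 in treated CD3+CD8- replicate 19, the lowest (0.526), Gata2 in treated CD3-CD8- replicate 2, the lowest (0.776), Spib at its lowest in untreated CD3+CD8- replicate 6 (0.536), and Itgb3 in untreated CD3-CD8- replicate 1, the highest (0.502).

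Mx1 and Tm6sf1 moved in opposite directions without overlap in different fractions. The treated minus untreated log2 difference of Mx1 was -0.66 in CD3+CD8- and 0.92 in CD3-CD8- cells, 1.59 apart. That of Tm6sf1 was 0.74 in CD3+CD8+, -0.56 in CD3+CD8- and 0.27 in CD3-CD8- cells, up to 1.31 apart. By overlap these differences were not tested, and in the F-test neither passed adjustment over all genes.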

How the results depend on the processing

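The count of calls, 683, moved by more than 1.5 times under these settings: library totals alone 18, no filter on low counts 287, a stricter filter 176, no replicate block 1553, DESeq2 1388, 1 value per animal 0 (1441 at an unadjusted p below 0.05), sample quality weights 5444, lane as covariate 1460, and without CD3+CD8+, CD3+CD8- or CD3-CD8- cells 223, 1390 and 0. Calls with a shared direction, 566, became 17, 266, 175, 1258, 1226, 0, 3083 and 1153 under the first 8 of these settings. Genes with a shared direction, 5278, were 800 with library totals alone and 9396 with no filter. Calls for a difference between fractions, 0, were 55 with DESeq2 and 331 with quality weights. Over the fits that left out 1 library or number, the 4 counts ranged from 17 to 1766, 15 to 1474, 3626 to 6600 and 0 to 11.

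Fold changes turned sign for 1 called gene, Bcl3 (0.023 with GC correction), and for genes that were not called: Cd274 (0.17 with library totals alone, 0.031 without CD3+CD8- cells), Mki67 (-0.042), Mx1 (-0.38) and Xlr4c (-0.22) without CD3-CD8- cells, Tlr3 (-0.11 with 1 value per animal, -0.22 with GC correction, -0.47 without CD3-CD8- cells), Tm6sf1 (-0.12 without CD3+CD8+ cells, -0.022 without CD3-CD8- cells) and Xist (-0.006, -0.17, -0.30, -1.10, -0.31, -0.14 and -0.60 with DESeq2 size factors, library totals alone, 1 value per animal, quality weights, lane, GC correction and without CD3-CD8- cells). Leaving out libraries, Cd274 ranged from -0.19 to 0.20, Mki67 from -0.10 to 0.42, Tm6sf1 from -0.003 to 0.24 and Xist from -2.88 to 2.76. The cause of these changes was not tested. The fits without a fraction, and without number 6 and the libraries rich in ribosomal RNA together (580 calls), were chosen after seeing the data. With 3 treated and 4 untreated numbers, and libraries as small as 493848 counts outside ribosomal RNA loci, low genes are the least certain.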
